A study of Mus musculus with 8 samples.

Results

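The tubulin mRNAs examined here were those of 9 mouse genes, the α-tubulins Tuba1a, Tuba1b and Tuba1c and the β-tubulins Tubb2a, Tubb2b, Tubb3, Tubb4b, Tubb5 and Tubb6. The genes were taken by name. Their reads were those that passed the poly(A) quality check and lay on an mRNA, and all 9 had at least 30 reads in total. They were 9 of the 13133 mRNA genes with reads and held 15342 of 1926150 kept reads, or 0.797%. The cells were wild-type P19, a line of undifferentiated mouse embryonal carcinoma cells that can be turned into neurons. They were exposed to 10 µM MHY1485 (MHY), a small molecule activator of the kinase mTOR, or to the same amount of its solvent DMSO, for 24 h or for 48 h. Each of the 4 groups had 2 libraries, a library being the reads of 1 barcoded culture, and the study asked how mTOR activation acts on mRNA poly(A) tails. In nanopore direct RNA sequencing each read is 1 RNA molecule read from its 3′ end, so a level is given in RPM, reads per 1000000 kept reads, and was not divided by length. A tail is the length of the poly(A) stretch of 1 read in nucleotides (nt). The table numbers the libraries 21 and 23 at 24 h and 24 and 25 at 48 h, in DMSO and in MHY alike. A further label split the reads at 24 h into 3 sets and those at 48 h into 2 other sets. The sets are called runs here, which is an inference, and the study's methods state 2 library preparations for each time point. Each run held reads of all the libraries of its time point, so runs split the same cultures and are not replicates. Time and run cannot be told apart.

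Microtubules are hollow polymers of α-tubulin and β-tubulin dimers that carry cargo, shape cells and form the mitotic spindle. Vertebrates make each subunit from several genes, called isotypes, whose proteins differ mainly at their carboxy-terminal tails. Cells also read the amount of free tubulin: when soluble dimers are in excess, the factor TTC5 recognises the beginning of the nascent tubulin protein and recruits SCAPER and the CCR4-NOT deadenylase, which shortens poly(A) tails, and the tubulin mRNAs are then degraded on the ribosome. In neural cells Tuba1a is a main α isotype, Tubb2b and Tubb3 are typical β isotypes, and Tubb5 and Tubb4b are used in most dividing cells.

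The beginning of the coding sequence is shown first, since it encodes the stretch that the autoregulatory pathway reads. The first 12 coding bases were read from the GENCODE vM21 transcripts (build GRCm38), 5′ to 3′, with the codons after the start codon in capitals:
Tuba1a: atgCGTGAGTGC
Tuba1b: atgCGTGAGTGC
Tuba1c: atgCGTGAGTGC
Tubb2a: atgCGCGAGATC
Tubb2b: atgCGAGAGATC
Tubb3: atgAGGGAGATC
Tubb4b: atgAGGGAGATC
Tubb5: atgAGGGAAATC
The α mRNAs were identical here, while at the codon after the start Tubb3, Tubb4b and Tubb5 shared a triplet that differed from those of Tubb2a and Tubb2b, and the 5 β mRNAs shown shared the last triplet. The Tubb6 sequence is not shown.

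The 3′ ends were read from where the alignments of each gene most often stopped. The last 30 bases before the tail are shown for the members the tail results turn on, on build GRCm38, with the polyadenylation signal in capitals:
Tuba1a (chr15:98949837-98949866, minus strand): gttttaAATAAAatactccctgtcttaaaa
Tuba1b (chr15:98931427-98931456, minus strand): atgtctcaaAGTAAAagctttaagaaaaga
Tubb4b (chr2:25222164-25222193, minus strand): cagataccaccATTAAAgcaattcatagtg
Tubb5 proximal end (chr17:35834805-35834834, minus strand): caggcactcAATAAAtatttgtttgtggaa
Tubb5 distal end (chr17:35833921-35833950, minus strand): agagccaaaAATAAAtgggaattggaaaaa
All lie in the 3′ untranslated region. 3 hexamers were searched on the transcript strand in the last 40 bases, the common signal AATAAA and its variants with T (ATTAAA) or with G (AGTAAA) at the second base. The common signal was found in Tuba1a, Tuba1c, Tubb2a, Tubb3, Tubb6 and both Tubb5 ends, the T variant in Tubb4b and the G variant in Tuba1b, and none of the hexamers in Tubb2b. Of 6221 transcript ends of the same length, 70.5% held the common signal, 18.7% the T variant and 4.65% the G variant, so the signal of Tuba1b was the least common of those found. The coding parts of these genes are similar, but between 99.6% and 100% of the reads of a member had a mapping quality of at least 10. No read lay on a pair of members, and 3 of the 15342 also lay on another gene.

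The libraries held between 178370 and 316548 kept reads, with a median tail over all mRNA reads between 92.4 and 102.5 nt. The lowest median was that of MHY library 24, which also had the largest share of tails under 30 nt (4.46%, against 2.17% to 3.38% in the other libraries). Of 12 markers of embryonal carcinoma and pluripotent cells, 11 had reads, and Pou5f1 alone had between 2375 and 2907 RPM. Zfp42 was at 0. Of the neuronal markers, Dcx and Rbfox3 were at 0, and the whole list summed to between 252 and 381 RPM, mostly from Stmn2. The neuronal sum was 337 and 344 in DMSO and 252 and 263 in MHY at 48 h, with groups that did not overlap, and its part in the tubulin results was not tested. Without Stmn2 the sum was 65.5 and 101 in DMSO and 89.9 and 79.4 in MHY, which overlapped. The 8 endoderm and mesoderm markers summed to between 16.8 and 237 RPM, nearly all from T. T was higher in library 25 than in library 24 in both treatments (231 against 70.2 in DMSO and 187 against 32.1 in MHY).

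P19 cells drew most of their tubulin mRNA from 3 isotypes. Tuba1b had 5624 reads, Tubb5 4215 and Tuba1a 3173, and in each of the 8 libraries Tuba1b was above Tubb5 and Tubb5 above Tuba1a. Tubb4b followed with 1074 reads and was below Tuba1a and above Tuba1c in all 8. Tuba1c (464 reads), Tubb2b (346) and Tubb6 (310) changed places between libraries, so their order is not fixed. Tubb3 had 94 reads and Tubb2a 42, with Tubb3 the higher of the pair in all 8 libraries. Among all genes, Tuba1b ranked 81 by reads, Tubb5 100 and Tuba1a 119. Within the α reads Tuba1b took between 55.3% and 65.5%, Tuba1a between 29.5% and 39.3% and Tuba1c between 4.46% and 5.54%. Within the β reads Tubb5 took between 64.5% and 73.2% and Tubb4b between 15.7% and 19.5%. There were between 1.34 and 1.74 α reads to each β read, the median being 1.52. Fewer cells of a type and less RNA per cell cannot be told apart in such bulk samples.

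At 24 h no tubulin mRNA passed the test of its level between MHY and DMSO. The 8 members with enough reads to be tested (all but Tubb2a) had log2 differences from -0.19 to 0.79, with a median of 0.21 where the median of all 4116 genes was -0.02. None had an adjusted p under 0.05 in limma voom, as against 0.0486% of all genes, and the lowest adjusted p was 0.916. At an unadjusted p under 0.05, 1 member (Tubb6) and 184 of all genes passed, and limma without voom weights called no member either. The 2 libraries of a group limit the precision, and an exact permutation test of 2 against 2 cannot go below p = 0.333.

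Tubb6, a minor β isotype found in many tissues, had the lowest unadjusted p of the members at 24 h. Its level was 136 and 72.5 RPM in DMSO libraries 21 and 23 and 142 and 207 in MHY libraries 21 and 23. Both MHY libraries were above both DMSO libraries, as was so of 17.8% of genes. The log2 difference was 0.79 (SE 0.29, limma voom, adjusted p = 0.916), and it ran from 0.26 without DMSO library 23 to 1.17 without DMSO library 21. At 48 h it was 122 and 158 in DMSO libraries 24 and 25 and 225 and 229 in MHY, a log2 difference of 0.56 (SE 0.23, adjusted p = 0.268). At 48 h too both MHY libraries were above both DMSO libraries, as was so of 25.2% of genes. Tubb6 passed the adjusted test at neither time. Its share of the β reads was 3.11% ± 1.23 in DMSO and 5.24% ± 1.29 in MHY at 24 h, and 4.36% ± 0.548 and 8.01% ± 0.0176 at 48 h (SD, n = 2). The difference in level within the 3 runs at 24 h was 0.07, 0.67 and 2.10 (log2), and within the 2 runs at 48 h 1.03 and 0.50. These within-run values split the reads of the same libraries and are not replicates. They rest on few reads, with 7 in DMSO against 26 in MHY for the highest of them and 69 at most in a treatment.

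At 48 h the 2 major isotypes Tuba1b and Tubb5 had lower values in MHY, close to the threshold of the test but not past it. Tubb5 had 2129 and 2407 RPM in DMSO libraries 24 and 25 and 1807 and 1971 in MHY libraries 24 and 25. The MHY values were both below the DMSO values, as was so of 14.4% of genes. The log2 difference was -0.39 (SE 0.12, limma voom, adjusted p = 0.058), where 1.72% of all genes were called at an adjusted p under 0.05 and 1.31% were called as lower. Tuba1b, the α isotype with the most reads, had 3187 and 2843 in DMSO and 2321 and 2905 in MHY. Its groups overlapped, since MHY library 25 was above DMSO library 25. The log2 difference was -0.34 (SE 0.11, adjusted p = 0.0865), and it ran from -0.51 without MHY library 25 to -0.11 without MHY library 24. Within the 2 runs, with the libraries of a treatment pooled, the log2 differences were -0.20 and -0.31 for Tubb5 and -0.21 and -0.20 for Tuba1b. These runs split the reads of the same libraries and are not replicates.

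Whether these 2 genes pass depends on the setting. Both passed with the library number as a replicate block, as given at the end, and whether same-numbered libraries are paired is not known. Without the filter on low counts both passed (adjusted p = 0.000733 for Tubb5 and 0.0006 for Tuba1b), and likewise without MHY library 25 (0.00713 and 0.000878), and Tubb5 also without DMSO library 24 (0.0402). Scaled to total reads, the log2 differences were -0.28 and -0.22 and the adjusted p rose to 0.162 and 0.247. Over the 11 alternatives the adjusted p ran from 0.000733 to 0.77 for Tubb5 and from 0.0006 to 0.911 for Tuba1b. Scaling to total reads moved the median log2 difference of all genes at 48 h from -0.02 to 0.10, and the share of higher genes among those called from 23.9% (17 of 71) to 53.3% (32 of 60).

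The other members are given by their values at 48 h. Tubb2b, a β isotype of neural tissue, had 173 and 193 RPM in DMSO and 144 and 117 in MHY, without overlap (log2 difference -0.59, SE 0.25, limma voom, adjusted p = 0.267). Tubb4b had 590 and 524 in DMSO and 530 and 481 in MHY, which overlapped (-0.24, SE 0.16, adjusted p = 0.585). Tuba1a had 1895 and 1362 in DMSO and 1650 and 1308 in MHY (-0.20, SE 0.13, adjusted p = 0.546). This estimate ran from -0.44 without DMSO library 25 to -0.0044 without DMSO library 24. It was higher in library 24 than in library 25 in both treatments, by more than the treatments differed. Tuba1c had 248 and 246 in DMSO and 228 and 224 in MHY (-0.24, SE 0.21, adjusted p = 0.685). Tubb3, the β isotype used as a marker of neurons, had 32.8 and 34.8 in DMSO and 64.2 and 42.0 in MHY (0.53, SE 0.45, adjusted p = 0.67), from 7 to 20 reads per library, and the difference was 0.24 without MHY library 24. Tubb2a, which was not tested, had 18.7 and 12.6 in DMSO and 32.1 and 23.4 in MHY, from 4 to 10 reads per library.

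Summed over the 9 members, the level at 48 h was 8088 ± 435 RPM in DMSO and 7150 ± 212 in MHY (SD, n = 2), and both MHY libraries were below both DMSO libraries. At 24 h it was 8335 ± 433 and 8661 ± 563, with overlap. Of the 8 members tested, 6 had a log2 difference below 0 at 48 h, with a median of -0.24, where 51.5% of all genes were below 0. In the test of the difference between the 48 h and the 24 h effects all 8 estimates were below 0, from -0.80 to -0.05, as were those of 51.4% of all genes, and none passed (limma voom, lowest adjusted p = 0.583), where 0.34% of genes were called. With 1 library left out, the estimate lay above 0 at its highest for 3 of the 8, reaching 0.26 for Tubb3, 0.038 for Tubb4b and 0.30 for Tubb6. Unadjusted, 2 of the 8 members had p under 0.05, Tuba1a and Tubb2b, as did 273 of all genes (6.63%), and limma without voom weights called neither. Between the DMSO cultures at 48 h and 24 h no member and no other gene passed (0.0% called, 175 genes at an unadjusted p under 0.05, none of them a member), and limma without voom weights called no member.

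**Figure D1:**
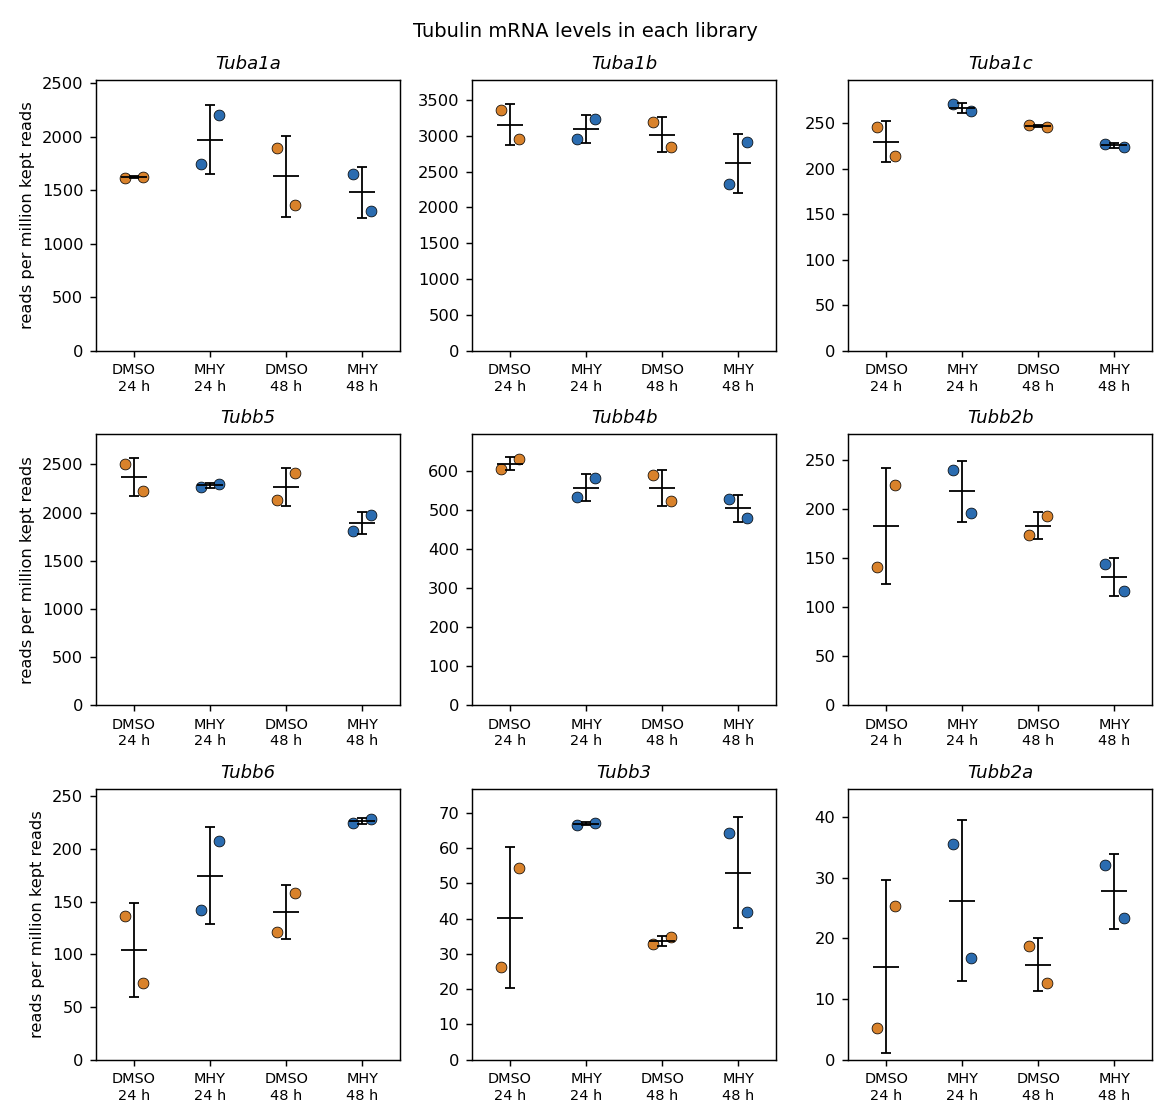
Level of each tubulin mRNA in RPM (y axis, from 0) in the 8 libraries, by treatment and time (x axis); points are libraries, horizontal bars the mean of 2 and whiskers 1 SD. At 48 h both MHY points of Tubb5 (1807 and 1971) lie below both DMSO points (2129 and 2407), and both MHY points of Tubb6 (225 and 229) lie above (122 and 158).

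The isotypes differed from each other in tail length within the same libraries. The 7 members with at least 10 reads in every library (all but Tubb2a and Tubb3) were compared in 21 pairs, each pair within the same 8 libraries. Tuba1b had median tails of 92.8, 97.2, 94.5 and 92.3 nt in DMSO libraries 21, 23, 24 and 25. Tubb5 had 103, 112, 110 and 107 nt in the same libraries. Tuba1b tails were shorter than Tubb5 tails in 8 of 8 libraries, by 13.4 nt on average (SD 3.62, exact sign-flip permutation test over 8 libraries, p = 0.0078, the smallest it can give, adjusted over 21 pairs p = 0.0273). Tubb4b, at 92.5, 94.8, 96.0 and 101 nt in DMSO, was likewise shorter than Tubb5 in 8 of 8, by 12.2 nt (SD 6.17, exact permutation test, adjusted p = 0.0273). Tuba1b and Tubb4b differed from each other by 1.18 nt (SD 6.41, exact permutation test, adjusted p = 0.734). Tuba1b was also shorter than Tuba1c in 8 of 8 libraries, by 15.2 nt (SD 7.08, exact permutation test, adjusted p = 0.0273).

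In the mean of the DMSO libraries, 29.04% of 1949 genes had a shorter median tail than Tuba1b and 34.2% a shorter one than Tubb4b. For Tuba1a (70.3%), Tubb5 (70.9%), Tuba1c (72.4%) and Tubb2b (69.4%) the shares were larger, and Tubb6 lay near the middle (51.4%). Of the 21 pairs, 11 had an adjusted p under 0.05 in the exact permutation test. Pairs of other genes were not compared, so whether this count is particular to the tubulins was not tested. The Tuba1a tails were longer than the Tuba1b tails in 6 of 8 libraries, all but the MHY libraries at 48 h. The share of tails of 30 to 90 nt, the class that the study follows as tails of about 60 nt, ran from 41.0% to 44.2% for Tuba1b over the 8 libraries and from 31.0% to 38.0% for Tubb5.

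At 24 h no tubulin mRNA passed the test of tail length between MHY and DMSO. The differences in median tail of the 7 members ran from -11.1 to 5.61 nt, and the lowest adjusted p was 0.996 (limma, weighted by read number). No other gene passed either (0.0% of 1949 called, 77 at an unadjusted p under 0.05, none of them a member). For Tuba1a the medians were 107 and 110 nt in DMSO libraries 21 and 23 and 105 and 102 nt in MHY libraries 21 and 23. Both MHY values were below both DMSO values, as was so of 17.9% of genes. The difference was -4.99 nt (SE 3.57, adjusted p = 0.996), -2.84 nt without DMSO library 23 and -2.67 nt by the mean tail. The shares of tails under 30 nt and of 30 to 90 nt gave no call for a member or any other gene at 24 h (0.0% in each, 110 and 95 genes at an unadjusted p under 0.05, none of them a member).

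At 48 h the tails of Tuba1a were shorter in MHY, and Tuba1a was the only member that passed. Its median tail was 105 and 108 nt in DMSO libraries 24 and 25 and 89.8 and 91.9 nt in MHY libraries 24 and 25, so the groups were well apart and the MHY values were the lowest of all 8 libraries. The median fell by 16.1 nt (SE 3.48, limma, adjusted p = 0.0119). In this comparison 0.872% of genes were called, 17 of 1949, all with shorter tails, and 13 of these have symbols of ribosomal protein genes. Another was Rps2-ps10, which has the symbol of a pseudogene of Rps2 and was kept because its transcript is not annotated as a pseudogene. Its separation from Rps2 reads was not tested. The median difference of all genes was -3.02 nt, and 13.1% of genes had an estimate at or below that of Tuba1a. Ranked by p, Tuba1a was 6 of the 1949 genes.

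The share of Tuba1a tails of 30 to 90 nt rose at 48 h. It was 34.1% (95% Wilson interval 29.6 to 38.8) and 36.4% (32.0 to 41.1) in DMSO libraries 24 and 25. In MHY libraries 24 and 25 it was 46.9% (42.6 to 51.2) and 45.7% (39.98 to 51.6). The intervals cover counting error only, and those of DMSO did not overlap those of MHY library 24. The log2 odds of the share rose by 0.67 (SE 0.15, limma, adjusted p = 0.038), where 0.257% of genes were called, 5 of 1949. The other 4 were D10Wsu102e, Rpl7, Rps2-ps10 and Rpsa. Tubb6 also had both MHY shares above both DMSO shares, as was so of 17.6% of genes, and did not pass. Its share was 34.4% ± 5.11 in DMSO and 48.4% ± 3.75 in MHY (SD, n = 2), from 26 to 70 reads per library. Its log2 odds differed by 0.72 (SE 0.44, limma, adjusted p = 0.925). At 24 h its share was 36.7% ± 2.45 and 46.6% ± 4.78, also without overlap (limma, adjusted p = 0.988). The share under 30 nt was 1.58% ± 0.915 in DMSO and 2.81% ± 0.433 in MHY (SD, n = 2), from 4 to 16 reads per library, and did not pass (log2 odds 0.98, SE 0.40, limma, adjusted p = 0.439, 0.359% of genes called). These log2 odds ran from 0.37 without DMSO library 25 to 1.56 without DMSO library 24, and were 0.10 with a bound of 20 nt.

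Read by 30-nt steps, the Tuba1a reads that were more frequent in MHY at 48 h had tails of 30 to 60 nt (15.3% ± 1.70 in DMSO and 21.3% ± 3.79 in MHY) and of 60 to 90 nt (19.9% ± 0.142 and 25.1% ± 2.96). Those that were less frequent had tails of 120 to 150 nt (21.5% ± 0.745 and 14.9% ± 2.12) and of 150 nt or more (17.97% ± 1.47 and 13.3% ± 1.07), all SD with n = 2. The groups did not overlap in any of these 4 steps, nor in the other 2, under 30 nt (1.58% ± 0.915 and 2.81% ± 0.433) and from 90 to 120 nt (23.8% ± 0.201 and 22.7% ± 0.204), where they lay closer together. For Tuba1b the same 4 steps differed by 0.173, -0.326, 0.653 and 1.22 percentage points, and they overlapped except from 60 to 90 nt.

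Within each run at 48 h the Tuba1a median was lower in MHY, with an MHY minus DMSO difference of -8.615 nt in run 1 and -21.3 nt in run 2, and the 30 to 90-nt share was higher by 4.06 and by 16.4 points. Both runs split the reads of the same libraries and are not replicates. The call on the median was lost without weights by read number (-15.8 nt, adjusted p = 0.978), without DMSO library 25 (-15.0 nt, adjusted p = 0.588) and without MHY library 24 (-14.7 nt, adjusted p = 0.869), and held under the other 8 of 11 alternatives. The call on the 30 to 90-nt share held under 3 of 10 alternatives, with estimates from 0.48 to 0.75. It was lost without DMSO library 24 (limma, adjusted p = 0.16), without DMSO library 25 (adjusted p = 0.253) and without MHY library 24 (adjusted p = 0.952), and with mapping quality of at least 10 (adjusted p = 0.122), bounds of 40 to 80 nt (adjusted p = 0.424), no weights (adjusted p = 0.998) or full-length reads alone (adjusted p = 0.106). MHY library 24 had the lowest median tail over all reads, as given above. In full-length reads alone, those whose alignment began within 30 nt of the common 5′ start, the Tuba1a medians were 105 and 110 nt in DMSO and 90.1 and 90.1 nt in MHY. The full-length share of Tuba1a reads ran from 57.5% to 68.4% over the libraries.

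Tuba1b and Tuba1a, both on chromosome 15, were set side by side within each library. The Tuba1a median minus the Tuba1b median was 13.9 and 13.2 nt in DMSO and 12.5 and 7.81 nt in MHY at 24 h. At 48 h it was 10.96 and 15.4 nt in DMSO and -6.21 and -0.865 nt in MHY. The difference between the 2 genes was thus lower by 16.7 nt in MHY at 48 h, without overlap, in a test that could not pass (exact permutation test of 2 against 2 libraries, p = 0.333, the smallest it can give). The test of whether the effect of MHY on Tuba1a tails differed between 48 h and 24 h gave -11.1 nt (SE 4.98, limma, adjusted p = 0.999), so that the times were not shown to differ.

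**Figure D2:**
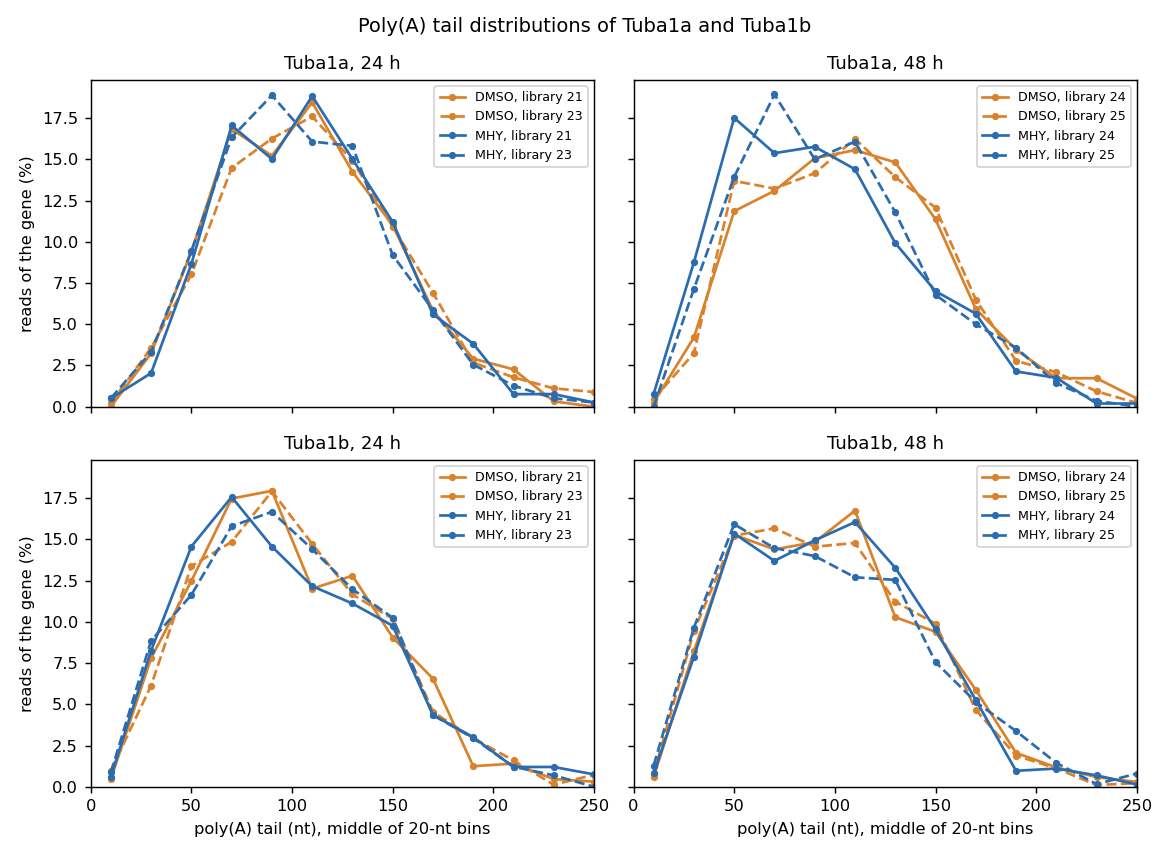
Share of the reads of Tuba1a (upper panels) and Tuba1b (lower panels) by poly(A) tail length in 20-nt bins, at 24 h and 48 h; each line is 1 library, orange for DMSO and blue for MHY. At 48 h both MHY lines of Tuba1a lie to the left of both DMSO lines (medians 89.8 and 91.9 nt against 105 and 108 nt), while those of Tuba1b run together.

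The other members did not pass in median tail at 48 h, and their lowest adjusted p was 0.755 (limma). For the shares under 30 nt and of 30 to 90 nt it was 0.729 and 0.925 (limma). Tuba1b medians were 94.5 and 92.3 nt in DMSO and 96.0 and 92.8 nt in MHY, a difference of 1.20 nt (SE 2.65, limma, adjusted p = 0.967). Tubb5 medians were 110 and 107 nt in DMSO and 104 and 111 nt in MHY, a difference of -0.69 nt (SE 3.34, adjusted p = 0.984). Tubb4b had 96.0 and 101 nt in DMSO and 84.6 and 95.2 nt in MHY, with no overlap (-9.94 nt, SE 6.0, adjusted p = 0.755), and the difference was -3.44 nt without MHY library 24. Tubb6 had 104 and 92.6 nt in DMSO and 89.9 and 81.4 nt in MHY, also with no overlap (-9.95 nt, SE 10.4, adjusted p = 0.905). The Tubb6 difference ran from -17.1 nt without DMSO library 25 to -6.22 nt without DMSO library 24, was -2.01 nt with barcode confidence of at least 0.9, and its mean tails overlapped. In all, 3 of the 7 members had both MHY medians below both DMSO medians at 48 h, where 21.8% of genes did. Tuba1c and Tubb2b, with 25 to 78 reads per library, overlapped. Tubb3, which was not tested, had 126 and 111 nt in DMSO and 95.6 and 92.2 nt in MHY from 7 to 20 reads, and Tubb2a 70.8 and 74.2 nt in DMSO and 83.8 and 117 nt in MHY from 4 to 10 reads.

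Between the DMSO cultures at 48 h and 24 h no member passed in median tail (differences from -14.1 to 4.71 nt, limma, lowest adjusted p = 0.953) and no other gene did (0.0% called, 124 at an unadjusted p under 0.05, none of them a member). The Tuba1a difference was -2.22 nt (SE 3.52), less than the spread.

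**Figure D3:**
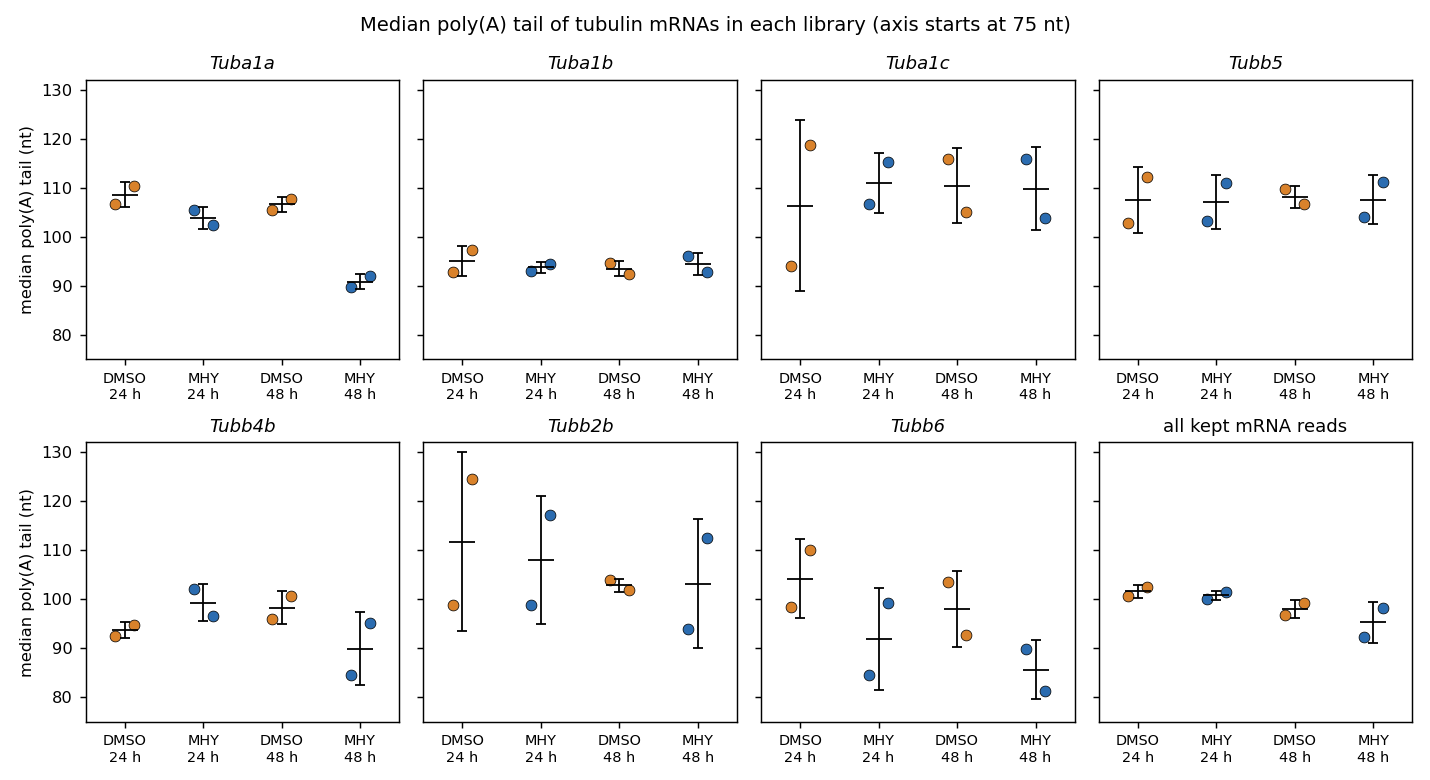
Median poly(A) tail in nt (y axis, from 75 nt) of the 7 tubulin mRNAs with at least 10 reads in every library, and of all kept mRNA reads, by treatment and time; points are libraries, horizontal bars the mean of 2 and whiskers 1 SD. Tuba1a in MHY at 48 h (89.8 and 91.9 nt) lies below its other 6 libraries, and Tuba1b stays between 92.3 and 97.2 nt in all 8.

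Tubb5 mRNA ended at a pair of sites 884 nt apart. Of its 4215 reads, 3724 (88.4%) stopped within 20 nt of position 1765 of the transcript, the proximal end shown above, and 374 (8.87%) within 20 nt of position 2649, the annotated distal end. Both have an AATAAA the same distance from the end, 21 nt counted from its first base. The distal molecules carried the longer tails. Median tails at the proximal end were 98.5, 111, 96.7, 108, 107, 100.0, 101 and 108 nt in DMSO 21, DMSO 23, MHY 21, MHY 23, DMSO 24, DMSO 25, MHY 24 and MHY 25. At the distal end they were 127, 143, 143, 135, 133, 133, 124 and 126 nt in the same order. The distal tails were longer in 8 of 8 libraries, by 29.2 nt on average (SD 8.35, lowest 17.9, highest 45.9, exact sign-flip permutation test, p = 0.0078, the smallest it can give).

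The share of tails of 30 to 90 nt was lower at the distal end by 23.3 points (SD 6.18, exact permutation test over 8 libraries, p = 0.0078). No distal read had a tail under 30 nt, 0 of 374, which allows a share of up to 0.802%, while 106 of 3724 proximal reads (2.85%) did. Reads of the distal end are longer, and 31.8% of them were full-length against 66.5% of the proximal reads. In full-length reads alone the distal tails were longer by 26.6 nt (SD 9.35, 8 of 8 libraries, exact permutation test, p = 0.0078).

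The share of the distal end among reads of either site was 8.55% and 8.68% in DMSO and 7.83% and 6.31% in MHY at 24 h. At 48 h it was 10.2% and 11.1% in DMSO and 8.76% and 10.5% in MHY. It was lower in MHY by 1.28 points within time points, which did not pass (exact stratified permutation test, p = 0.111). It was higher at 48 h than at 24 h by 2.30 points within treatments, without overlap within either treatment (exact stratified permutation test, p = 0.0556, the smallest it can give), and time and run cannot be told apart. At 48 h the distal medians were 133 and 133 nt in DMSO and 124 and 126 nt in MHY, without overlap (exact permutation test, p = 0.333, the smallest it can give).

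**Figure D4:**
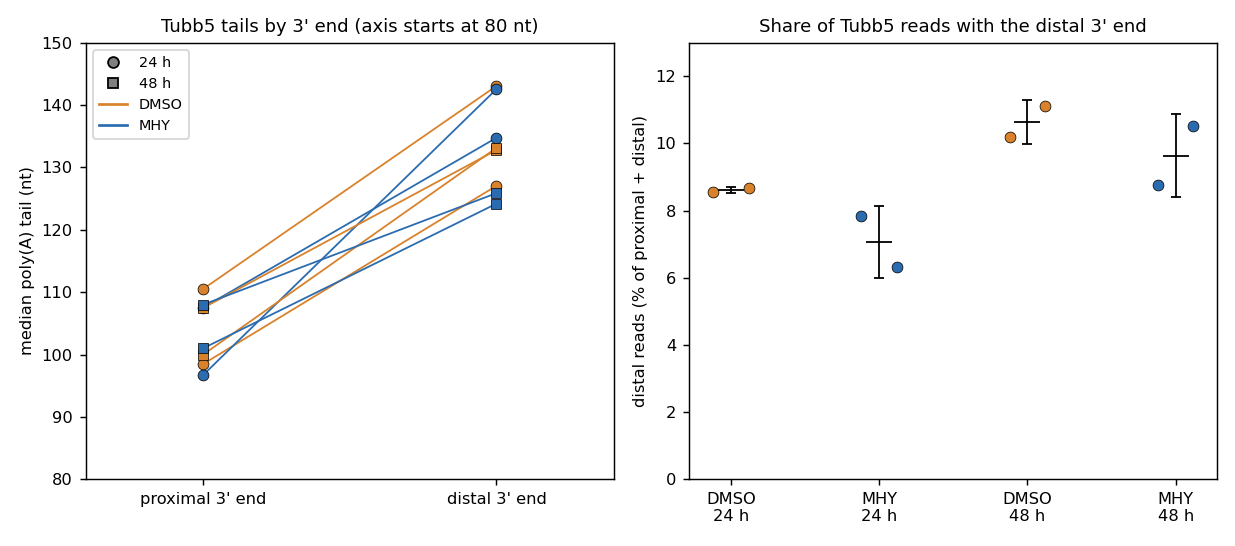
Left, median poly(A) tail in nt (y axis, from 80 nt) of Tubb5 reads at the proximal and the distal 3′ end, with a line for each of the 8 libraries; right, reads at the distal end as a percentage of reads at either end, with bars for the mean of 2 libraries and whiskers of 1 SD. All 8 lines rise, by 17.9 to 45.9 nt, and the share of distal reads ran from 6.31% to 11.1%.

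The wider tubulin pathway is given by gene lists. Of 11 other tubulins, 6 had reads and 2 were tested for level. Neither passed at 24 h or 48 h (limma voom). Tubg1, the γ-tubulin that nucleates microtubules, had 60.8 and 60.02 RPM in DMSO and 96.3 and 117 in MHY at 48 h (log2 difference 0.65, SE 0.33, adjusted p = 0.392). Of the 5 autoregulation genes 4 were tested and none passed at either time. Ttc5 had 46.8 and 34.7 RPM in DMSO and 32.1 and 46.7 in MHY at 48 h, which overlapped. Cnot1, the scaffold of the deadenylase complex, had a log2 difference of -0.44 at 48 h with an adjusted p of 0.538. Of 13 tubulin folding factors 11 were tested and 0 passed at either time, with 0 at an unadjusted p under 0.05. Of 10 tubulin-modifying enzymes 2 were tested and 0 passed.

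Of 30 microtubule-associated and destabilising proteins, 21 were tested and 1 passed at 48 h, against the 1.72% of all genes, and none at 24 h. This was Stmn1, stathmin, which binds tubulin dimers and destabilises microtubules. It had 1137 and 1159 RPM in DMSO libraries 24 and 25 and 741 and 925 in MHY, so the groups did not overlap, and fell by 0.60 on the log2 scale (SE 0.14, limma voom, adjusted p = 0.00546). Its neuronal relative Stmn2 had 271 and 243 in DMSO and 173 and 173 in MHY, also without overlap (log2 difference -0.67, SE 0.22, adjusted p = 0.0851). The median log2 difference of the 21 was -0.07, where that of all genes was -0.02. None of the tested genes of these 5 lists passed for median tail at either time. Few were tested, namely 1 of 11 other tubulins, 1 of 5 autoregulation genes and 9 of 13 folding factors. The rest were 9 of 30 microtubule-associated and destabilising proteins and 0 of 10 modifying enzymes. Among the marker lists, the pluripotency gene Tdgf1 (-0.997, SE 0.21, limma voom, adjusted p = 0.000679) and the mesoderm gene T (-1.19, SE 0.30, adjusted p = 0.0089) fell at 48 h, and no other marker passed. The T groups overlapped, with 70.2 and 231 RPM in DMSO libraries 24 and 25 and 32.1 and 187 in MHY, and the libraries of a treatment differed by more than the treatments did.

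The genes whose levels followed the 2 leading isotypes most closely were found over the 8 libraries among 230 genes with at least 100 reads in each. For Tuba1b they were Sumo2 (Pearson r = 0.95), Rps27 (0.936) and Rpl28 (0.933). For Tubb5 they were Rpl10a (0.954), Aldoa (0.948) and Pgk1 (0.927). Tuba1b and Tubb5 themselves had r = 0.755, and Tuba1a had r = 0.338 with Tuba1b and 0.123 with Tubb5. All points share libraries and their depth, and the values are a description.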

How the data were processed

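The deposited table lists 1 alignment of 1 read per line, for all libraries together. The authors state that base calling used Guppy, that alignment to mouse mm10 transcripts (GENCODE) used minimap2 2.20, that tails were estimated in nt by Nanopolish and that Deeplexicon assigned the barcodes. The table also holds, as deposited, the position and end of each alignment, the translocation rate, the mapping quality score and the barcode confidence as a fraction. Of 2439710 alignments, 2027638 (83.1%) had the tail quality PASS. One row per read and transcript was kept for mRNA, and 66955 mitochondrial and 12137 rows on transcripts annotated as pseudogenes were removed, which left 1926150. Libraries are named by treatment and a number that is not the replicate number of the labels, so each was mapped to its group and to no single sample, and the 2 libraries of a group were treated as its replicates. Libraries without a time mark were taken as 24 h.

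Reads were counted per gene and library. Levels were tested with limma 3.58.1 (voom, R 4.3.3, median-of-ratios size factors, genes reaching 10 reads in 2 or more libraries). Medians and log2 odds of tail classes (0.5 read added) were tested with limma weighted by read number, for genes with at least 10 reads in each library. All 8 libraries shared 1 estimate of spread, tests were two-sided and p-values were adjusted by Benjamini-Hochberg over all genes tested, with a threshold of 0.05. Depth per library and its limits are given in the text. The study's methods state biological replicates. Other values were compared by exact permutation tests. Fits were tested on simulated data. The members and lists were chosen with earlier results of these data known. Named genes are all members, every list gene past the threshold, up to 10 by p, and the 3 genes most alike to Tuba1b and to Tubb5; Tubg1, Ttc5, Cnot1 and Stmn2 were added after their values were seen. Alternatives cover scaling, filters, mapping quality, barcode confidence, read duplication, weights, class bounds, the mean tail, a replicate block and leaving out each library. Full-length reads were added after seeing the data.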

Additional observations from a re-analysis of the deposited data

Results flagged for a closer look

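In a pair of members the MHY libraries were both higher than either DMSO library at 24 h and both lower at 48 h, while neither member passed a test at either time. Opposite order at the 2 times without overlap was seen in 1 of 8 members and 5.73% of all genes for level, and in 1 of 7 members and 4.77% of all genes for median tail. The Tuba1c level was higher in MHY by 37.4 RPM at 24 h (246 and 214 in DMSO, 271 and 263 in MHY) and differed by -21.2 at 48 h (248 and 246 in DMSO, 228 and 224 in MHY). The test of the difference between the times did not pass (log2 -0.45, SE 0.30, limma voom, adjusted p = 0.853). The median tail of Tubb4b differed by 5.64 nt at 24 h (92.5 and 94.8 nt in DMSO, 102 and 96.6 nt in MHY) and by -8.40 nt at 48 h (96.0 and 101 nt in DMSO, 84.6 and 95.2 nt in MHY), and the test of its difference between the times did not pass either (-15.5 nt, SE 8.71, limma, adjusted p = 0.999). The order held for the Tubb4b median at 24 h and not for the mean tail, which overlapped and differed by 0.972 nt, and the fitted 24 h difference in median ran from 2.68 nt without MHY library 21 to 8.14 nt without MHY library 23. With 2 libraries in each group no library could be tested as an outlier.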

How the results depend on the processing

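Leaving out 1 library leaves a group with 1, which is assumed to vary like the others. The alternatives moved 50 counts of called genes by over 1.5 times and left 82 within it; of the estimates for single members 573 kept direction and side of the threshold, 54 changed sign, 7 came to pass and 10 no longer passed. The cause of these changes was not tested. Genes called for level at 24 h numbered 2, and 1 with mapping quality of at least 10, 4 in limma without voom weights and 0 to 1 with a library left out. At 48 h they numbered 71, and 147 without the filter, 44 with barcode confidence of at least 0.9, 34 without voom weights and 17 to 141 with a library left out (17 without MHY library 24, 141 without MHY library 25). For the difference of effects they numbered 14, and 29 without the filter, 6 by mapping quality, 7 by barcode confidence, 5 without voom weights and 0 to 30. For DMSO over time they numbered 0, and 8 without the filter, 1 by mapping quality and 0 to 2. For the median tail at 48 h they numbered 17, and 0 without weights and 0 to 40 with a library left out; the difference of effects gave 0 to 1 and DMSO over time 0 to 2. For the share under 30 nt at 48 h they numbered 7, and 12 by mapping quality, 0 with a 20-nt bound, 0 without weights and 0 to 1 with a library left out (0 to 1 at 24 h too). For the 30 to 90-nt share at 48 h they numbered 5, and 1 by mapping quality, 3 with bounds of 40 to 80 nt, 0 without weights, 3 in full-length reads (chosen after seeing the data) and 0 to 35, with 0 to 1 at 24 h. It is not known whether same-numbered libraries of the 2 treatments are paired. Their deviations from the group means had r = 0.0659 and 0.0582 over 431 genes, which does not settle it. The levels of T and of Tuba1a differed between libraries 24 and 25 in the same direction in both treatments. With the number as a replicate block Tuba1b (-0.31, limma voom, adjusted p = 0.0269) and Tubb5 (-0.37, adjusted p = 0.0183) passed for level at 48 h, and 17 genes were called for the share under 30 nt at 48 h and 4 for the 30 to 90-nt share at 24 h; the block could not be fitted for DMSO over time. Sign changes, none of them in a called value, were as follows. For the log2 level difference of effects, Tubb4b was 0.032 scaled to total reads and 0.038 by barcode confidence, and Tubb6 0.10 by barcode confidence; for DMSO over time Tubb2b was 0.0065 without voom weights. For the median tail at 24 h Tubb5 was 1.12 nt in full-length reads. At 48 h Tuba1b was -1.70 nt in full-length reads, Tuba1c -2.56 by barcode confidence, -0.65 without weights and -0.645 with the block, and Tubb2b 0.31 without weights and 1.29 in full-length reads. For DMSO over time Tubb5 was 0.097 nt by barcode confidence, 2.40 by mean tail, 0.695 without weights and 2.29 in full-length reads. The Tuba1a log2 odds under 20 nt at 24 h were 1.36. With a library left out, log2 levels at 24 h ran from -0.16 to 0.035 for Tuba1b, -0.062 to 0.58 for Tubb2b and -0.18 to 0.0059 for Tubb5. The difference of effects ran from -0.69 to 0.26 for Tubb3, -0.14 to 0.038 for Tubb4b and -0.61 to 0.30 for Tubb6. DMSO over time ran from -0.25 to 0.17 for Tuba1a, -0.031 to 0.18 for Tuba1c, -0.31 to 0.34 for Tubb2b, -0.67 to 0.29 for Tubb3 and -0.19 to 0.034 for Tubb5. Median tails at 24 h ran from -3.53 to 0.856 nt for Tuba1b, -8.27 to 16.3 for Tuba1c, -18.5 to 7.32 for Tubb2b and -5.53 to 3.88 for Tubb5. At 48 h they ran from -0.519 to 2.68 nt for Tuba1b, -5.58 to 6.38 for Tuba1c, -8.72 to 9.80 for Tubb2b and -3.74 to 3.38 for Tubb5. For DMSO over time they ran from -3.89 to 0.499 nt for Tuba1b, -9.24 to 15.4 for Tuba1c, -22.0 to 3.87 for Tubb2b, -4.41 to 5.0 for Tubb5 and -13.6 to 0.028 for Tubb6. With 2 libraries a group and under 100 reads a library for most minor isotypes, small differences in their tails were not detectable at this depth.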
